A study of Mus musculus with 9 samples.

Results

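X-1 was compared with no treatment in 3T3-L1 cells, a mouse embryo fibroblast line that can be turned into fat cells. All cultures, the controls included, were preadipocytes grown in medium with 10% fetal bovine serum and then kept without serum for 48 h. The 3 X-1 cultures received X-1 at 70 µM for a further 24 h, and the 3 control cultures were labelled untreated, with no vehicle named. These 6 arrays are 6 of the 9 in the series, the other 3 being X-3 at the same dose and time. Each array measured the total RNA of a whole culture with 1 colour, so less RNA of a gene per cell and fewer cells that express it cannot be told apart. The series title describes the compounds as mangiferin derivatives and gives expression signatures as the aim. Genes were taken by the arrays' own detection test: a probe was kept when it lay well above background on all 3 arrays of either group. Of 40960 probes 25034 were kept, and the brightest kept probe stood for each of 16555 genes or unnamed features.

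Mangiferin is a xanthone that carries a glucose, found in mango. Cells sense oxygen through prolyl hydroxylases (EGLN enzymes) that need oxygen, iron and 2-oxoglutarate to mark the HIF alpha subunits, which VHL then sends for destruction. When that step stops, HIF raises genes of glucose uptake, glycolysis, blood vessel growth and of the EGLN enzymes themselves. Preadipocytes kept without serum mostly leave the cell cycle, and they turn into adipocytes only when hormones switch on PPARγ and C/EBP factors.

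All 12 fibroblast and preadipocyte markers were above background on all 6 arrays. Of 9 markers of mature adipocytes only Fabp4 and Lipe were, and Plin1, Lep, Retn, Cfd and Slc2a4 were on none. The pan-leukocyte marker Ptprc and the macrophage marker Adgre1 were on none, although 5 of 7 macrophage markers, among them Csf1r and Cd14, were on all 6. Summed over a list, on a linear scale where 1 is the 75th percentile of an array, the macrophage markers ranged from 3.44 to 3.72 in the controls and from 3.40 to 4.01 with X-1. Adipocyte markers ranged from 0.694 to 0.769 and from 0.439 to 0.594, epithelial markers from 0.152 to 0.186 and from 0.404 to 0.458, and muscle markers from 0.482 to 0.907 and from 0.160 to 0.285. Lymphocyte markers ranged from 0.232 to 0.247 and from 0.257 to 0.333, and endothelial markers from 0.0579 to 0.0725 and from 0.0610 to 0.0652. The part of other cells in the results was not tested.

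Over all genes, 9373 of 16555 differed between X-1 and control (56.6%; limma, two-sided, Benjamini-Hochberg adjusted p under 0.05). X-1 was higher for 4600 (27.8%) and lower for 4773 (28.8%), by at least 2-fold for 2449 (14.8%) and 2471 (14.9%). The 3 X-1 arrays did not overlap the 3 control arrays for 11368 genes (68.7%), and the median difference of all genes was 0.04 on the log2 scale. Every count below is read beside these shares. Large changes were more often increases: 907 genes were higher and 659 lower by at least 4-fold, 345 and 140 by at least 8-fold, and 32 and 2 by at least 32-fold. On the first principal component (87.5% of the variance of the 6 arrays) the controls lay at −77.2 to −76.1 and the X-1 arrays on the other side of 0, up to 79.2. Every slide held control at position 1 and X-1 at position 2, so position and treatment cannot be told apart. Levels are log2 intensities minus the 75th percentile of the array, and a difference is X-1 minus control with its standard error. Scaling by the array median moves the median of all genes by −0.20 and gives 3042 genes higher and 5127 lower, and scaling by spike-in RNA, possible on slides 2 and 3, moves it by −0.92 and gives 1474 genes higher and 10220 lower. A direction is therefore relative to the 75th percentile, and spike-in values are given for the lists below whose median they turn or bring near 0. Of the genes given below, spike-in scaling also ended the calls of Adam10, Adam17, Cnn1, Cyp1b1, Dck, Fubp1, Hspa1b, Mcm7, Mmp13 and Orc1, a normexp background correction those of Abcd2, Areg, Cnn1 and Kdm4d, and taking the most 5′ probe of a gene those of Fubp1, H6pd and Phf8.

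**Figure D1:**
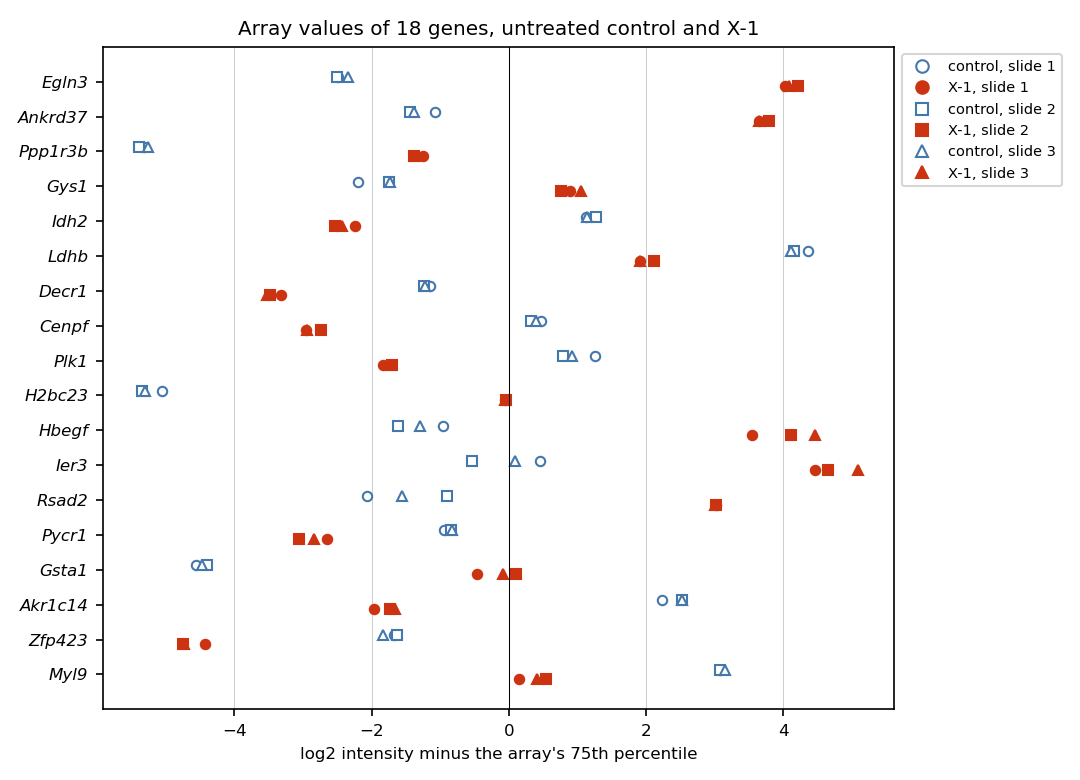
Array values of 18 genes discussed below (horizontal axis, log2 intensity minus the 75th percentile of the array), with open blue symbols for the 3 control arrays and filled red symbols for the 3 X-1 arrays, shaped by slide. The 18 genes were picked among genes called in this comparison, so the lack of overlap of the groups in them is no separate result. Egln3 moves from −2.50 to −2.35 in the controls to 4.03 to 4.22 with X-1.

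Where 2 probes of a gene lay at different places along it, the X-1 arrays read higher at the probe nearer the 5′ end, relative to the one nearer the 3′ end, than the controls did. The most 5′ and the most 3′ kept probe lay at least 200 bases apart on the genome in 5385 genes. The median difference between X-1 and control was 0.27 at the 5′ probes and −0.21 at the 3′ probes. The 5′ probe was the more positive one in 71.4% of the pairs. Measured per array as the 5′ level minus the 3′ level, relative to the control mean, the median over pairs was −0.06, 0.02 and 0.04 on the control arrays and 0.47, 0.25 and 0.36 on the X-1 arrays. All 3 X-1 arrays lay above all 3 controls, with an exact two-sided permutation p = 0.1, the smallest that 3 against 3 arrays allow. The shift was 0.05 for probes 200 to 500 bases apart, 0.12 at 500 to 1000 bases, 0.30 at 1000 to 2000 and 0.42 at 2000 to 4000. It was lower at 4000 to 8000 bases (0.35) and 8000 to 16000 (0.32) and 0.54 at 16000 bases or more. It was 0.30 over the 4686 pairs with both probes above background on all 6 arrays. The X-3 arrays gave −0.01, 0.59 and 0.60, so X-3 replicate 1 lay with the controls.

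**Figure D2:**
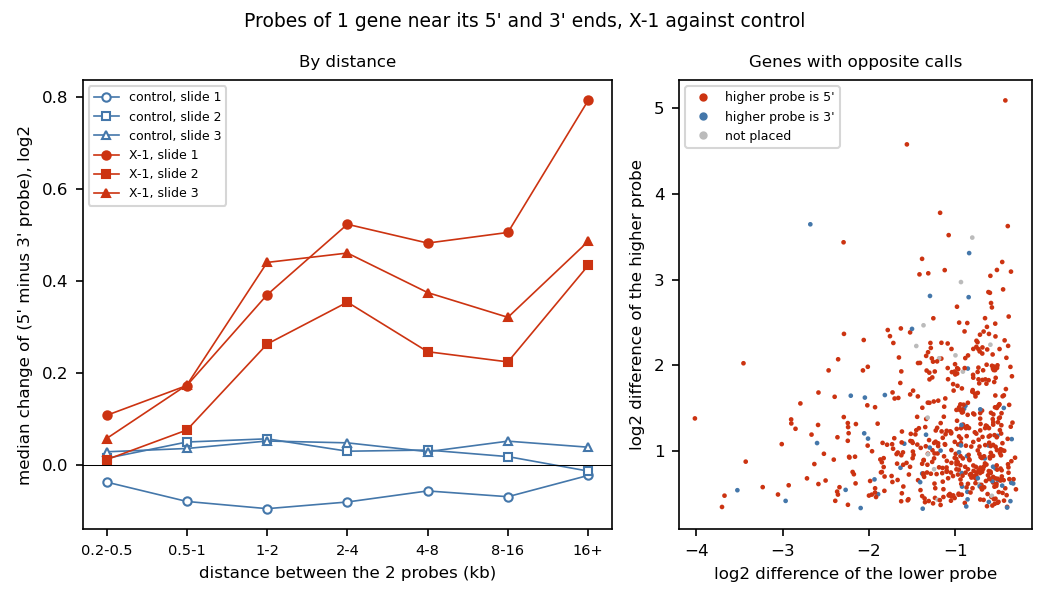
Left, the change of the 5′ minus the 3′ probe level against the control mean (log2, median over genes) by the genomic distance between the probes in kb, 1 line per array. The X-1 lines (red) lie above the control lines (blue) from 0.5 kb on and reach 0.43 to 0.79 at 16 kb or more. Right, genes with probes called in opposite directions, with the log2 difference of the lower probe against that of the higher probe, red where the higher probe is the more 5′ one.

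Probes of 1 gene could also be called in opposite directions. Over all kept probes 13806 of 25034 were called (55.1%). Of 5870 genes and features with more than 1 kept probe, 1662 had all probes called in 1 direction, 1282 had none called and 572 had calls in both directions. Of 568 such named genes 554 had both probes on 1 strand of 1 chromosome, and in 499 of these (90.1%) the higher probe was the more 5′ one, at a median distance of 5230 bases. Acvr2a, an activin receptor, was raised at chr2:48755621-48755680 by 2.03 ± 0.15 and lowered at chr2:48757324-48757383 by 1.41 ± 0.20 (mm9, plus strand, as the files map the probes). Bmpr1a, a BMP receptor on the minus strand, was higher by 2.08 ± 0.20 at chr14:35227690-35227749 and lower by 0.88 ± 0.22 at chr14:35224339-35224398, which is further 3′. Cdh11, a cadherin of mesenchymal cells also on the minus strand, was higher by 2.26 ± 0.12 at chr8:105191906-105191965 and lower by 1.16 ± 0.23 at chr8:105157896-105157955. The chaperone Hspa4 rose by 0.49 ± 0.13 at its brightest probe (−0.44 with spike-in scaling) and fell by 1.97 ± 0.36 at a more 3′ one. Neither the exon, intron or transcript end under these probes nor the part of RNA integrity was tested. Genes below whose other probe goes the other way are given with both values, and the lists were counted again with the most 3′ probe of each gene.

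Most genes that HIF switches on rose. In the list of HIF targets outside glycolysis 25 of 30 genes were called higher, 2 lower and 3 were not called, with a median of 2.47, and 2.49, 2.55 and 2.28 within slides 1, 2 and 3. The 2 lower members fell by at least 2-fold, and the lowest value in the list was −3.52. The most 3′ probes gave 24 higher and 2 lower. Egln3, a prolyl hydroxylase that HIF induces, was counted not here but in the list of oxygen sensors below. It read −2.48, −2.50 and −2.35 on the control arrays and 4.03, 4.22 and 4.09 on the X-1 arrays. The groups were far apart, with an SD of 0.084 in the controls and 0.0958 with X-1 (n = 3 each), and it rose by 6.55 ± 0.13 (93.9-fold, adjusted p = 3.74e-08). Ankrd37, an ankyrin repeat protein and HIF target, read −1.08, −1.44 and −1.39 on the control arrays and 3.65, 3.80 and 3.64 on the X-1 arrays. It rose by 5.00 ± 0.15 (32-fold), with no overlap. Hilpda, a lipid droplet protein that inhibits lipolysis, rose by 4.34 ± 0.11 and the lactate exporter Slc16a3 by 3.66 ± 0.15. Vegfa, the main growth factor of blood vessels, rose by 2.64 ± 0.15, with its 4 probes between 2.64 and 3.94. Other angiogenic factors went both ways: 7 of 16 were higher and 7 lower, with Vegfd, a lymphatic growth factor, lower by 1.91 ± 0.18 and Angpt2, an antagonist of the Tie2 receptor, by 1.27 ± 0.13.

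The RNA of the oxygen sensing machinery changed in part. Among 14 HIF subunits and oxygen sensors 6 were higher, 2 lower and 6 not called, with a median of 0.13, and 0.16, 0.17 and 0.29 within slides 1, 2 and 3, but −0.07 with median scaling and −0.82 with spike-in scaling and −0.01 with the most 3′ probes. Egln3, given above, had the largest rise in this list (6.55). Egln1, the main oxygen sensor, read −0.30, −0.03 and −0.30 on the control arrays and 2.88, 2.65 and 3.21 on the X-1 arrays, a rise of 3.13 ± 0.17. Vhl, which marks hydroxylated HIF for destruction, rose by 2.18 ± 0.27. Hif1a itself read 1.62, 2.26 and 2.19 on the control arrays and 2.88, 3.34 and 3.32 on the X-1 arrays and rose by 1.16 ± 0.20 (adjusted p = 0.000942), a call lost with spike-in scaling (0.19). Its slide 1 control and X-1 arrays were both the lowest of their groups, and the groups did not overlap. Epas1, which encodes HIF-2α, moved the other way and fell by 1.00 ± 0.18, reading 2.24, 2.23 and 2.07 on the control arrays and 1.24, 1.29 and 1.02 on the X-1 arrays. Histone demethylases of the Jumonji family use oxygen, iron and 2-oxoglutarate as the EGLN enzymes do, and 11 of 23 were higher and 4 lower (median 0.52, and 0.58, 0.55 and 0.50 within slides 1, 2 and 3, but −0.40 with spike-in scaling). Jmjd6 rose by 3.43 ± 0.13, Kdm3a by 1.72 ± 0.15 and Kdm6b by 1.72 ± 0.19, while Kdm4d fell by 0.93 ± 0.18 and Phf8 by 0.86 ± 0.17.

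Promoter windows of the HIF targets are shown because most members rose. HIF binds the letters ACGTG or GCGTG, searched here on both strands of the RefSeq windows (GRCm38.p6) that run from 250 bases before to 50 after a gene's start. Of 25 targets called higher 17 had a window, and 21 of their 24 windows (87.5%) held such letters. The share was 72.7% of 22 windows for the 15 higher glycolysis genes and 90% of 10 windows for the 4 lower ones, 59.6% of the 13549 windows of all tested genes and 43.8% of all 32851 windows. A match is a description of the letters, not a binding site. The 2 windows below belong to the named targets with the largest rises whose window holds the letters, Ero1a at chr14:45318523-45318822 and Ankrd37 at chr8:45999801-46000100, both on the minus strand and read 5′ to 3′ along the gene, with matches in capitals.
Ero1a: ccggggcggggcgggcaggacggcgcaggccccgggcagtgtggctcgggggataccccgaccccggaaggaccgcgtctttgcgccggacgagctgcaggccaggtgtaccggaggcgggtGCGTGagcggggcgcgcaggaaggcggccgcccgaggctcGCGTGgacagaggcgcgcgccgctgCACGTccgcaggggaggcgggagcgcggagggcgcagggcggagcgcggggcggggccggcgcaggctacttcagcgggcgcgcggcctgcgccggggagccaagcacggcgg
Ankrd37: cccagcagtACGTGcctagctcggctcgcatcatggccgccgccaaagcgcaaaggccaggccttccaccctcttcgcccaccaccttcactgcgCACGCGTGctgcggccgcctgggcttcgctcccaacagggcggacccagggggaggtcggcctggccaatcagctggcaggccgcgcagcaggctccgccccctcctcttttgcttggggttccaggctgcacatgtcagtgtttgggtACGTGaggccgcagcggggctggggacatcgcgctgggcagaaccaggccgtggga
The first holds 1 ACGTG and 2 GCGTG matches, and the second 2 of each. Ero1a, an oxidase that makes disulfide bonds in the endoplasmic reticulum, read 0.86, 0.84 and 0.78 on the control arrays and 6.51, 6.44 and 6.44 on the X-1 arrays, with no overlap, and rose by 5.64 ± 0.12.

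Most enzymes of glycolysis rose, and so did some glycogen genes. Of 20 glycolysis enzymes 15 were higher, 4 lower and 1 not called (median 2.38, and 2.28, 2.41 and 2.29 within slides 1, 2 and 3). Pfkfb3, which makes the activator of phosphofructokinase, rose by 3.18 ± 0.11, and Ldha, which turns pyruvate into lactate, by 2.20 ± 0.15. The 4 that fell were led by Aldoc, the brain aldolase, at −1.98 ± 0.21 (above background on 1 of 3 X-1 arrays), Pfkfb2 at −1.30 ± 0.13 and Pfkm, the muscle phosphofructokinase, at −1.10 ± 0.12, and Pfkfb2 was between −1.42 and 0.41 over the 3 of its 4 probes above background on all 6 arrays. Ldhb, the lactate dehydrogenase subunit that favours pyruvate, read 4.36, 4.15 and 4.12 on the control arrays and 1.91, 2.11 and 1.92 on the X-1 arrays. It fell by 2.23 ± 0.14 (4.69-fold) with no overlap, so the 2 lactate dehydrogenase genes moved in opposite directions. Over 18 genes of the fate of lactate and pyruvate 9 rose and 4 fell (median 0.52, and 0.52, 0.54 and 0.52 within slides 1, 2 and 3, but −0.39 with spike-in scaling and −0.13 with the most 3′ probes). The mitochondrial pyruvate carrier subunit Mpc1 fell by 1.29 ± 0.15 and pyruvate carboxylase Pcx by 1.75 ± 0.13, while Pdk1, which shuts pyruvate dehydrogenase, rose by 2.00 ± 0.15.

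Of 17 glycogen genes 6 were higher and 5 lower, with a median of −0.18, or 0.10 within slide 1. Ppp1r3b, which brings a phosphatase to glycogen and so activates its synthase, read −5.32, −5.39 and −5.26 on the control arrays and −1.24, −1.38 and −1.37 on the X-1 arrays. It rose by 3.99 ± 0.11 (15.9-fold), and the muscle-type glycogen synthase Gys1 (2.79 ± 0.19) and the branching enzyme Gbe1 (3.27 ± 0.19) rose as well. Ppp1r3d, another glycogen-targeting subunit, fell by 2.87 ± 0.15, and the brain phosphorylase Pygb, which breaks glycogen down, by 1.27 ± 0.13. In the pentose phosphate pathway 1 of 9 genes rose and 4 fell. Pgd, its second dehydrogenase, read 2.11, 2.67 and 2.74 on the control arrays and 5.08, 4.96 and 5.00 on the X-1 arrays and rose by 2.50 ± 0.17, whereas Pgls fell by 0.79 ± 0.18 and H6pd by 0.68 ± 0.14. The hexosamine pathway branches from glycolysis to make UDP-GlcNAc, and 3 of its 12 genes rose and 7 fell (median −0.83, and −0.80, −0.88 and −0.78 within slides 1, 2 and 3). Gfpt2, one of its entry enzymes, rose by 2.73 ± 0.15 and Uap1, its last, by 1.53 ± 0.19, while the salvage kinase Nagk fell by 2.56 ± 0.15 and the deacetylase Amdhd2 by 2.74 ± 0.15.

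The lists of the tricarboxylic acid cycle, the respiratory chain and the mitochondrial ribosomal proteins held falls and almost no rises. Of 20 genes of the tricarboxylic acid cycle 12 fell and 0 rose (limma; 0 higher at an unadjusted p under 0.05), with a median of −0.49, and −0.56, −0.54 and −0.40 within slides 1, 2 and 3. Idh2, the mitochondrial NADP isocitrate dehydrogenase, read 1.13, 1.27 and 1.14 on the control arrays and −2.24, −2.53 and −2.43 on the X-1 arrays. It fell by 3.58 ± 0.17 (12-fold), the largest fall in the list, ahead of Suclg2 (−2.36 ± 0.14) and fumarase Fh1 (−1.53 ± 0.14). Of 44 genes of the respiratory chain and ATP synthase 20 fell and 0 rose (limma; 1 higher at an unadjusted p under 0.05), with a median of −0.34, and −0.56, −0.17 and −0.29 within slides 1, 2 and 3. Ndufs8 of complex I fell by 1.42 ± 0.14 and Uqcrc1 of complex III by 1.28 ± 0.18, and Ndufb8 fell by 0.86 ± 0.11 but was at 0.44 at its more 3′ probe. Of 40 mitochondrial ribosomal proteins 24 fell, 2 rose and 14 were not called (median −0.54, and −0.62, −0.40 and −0.51 within slides 1, 2 and 3), with Mrpl2 at −1.44 ± 0.17, Mrps27 at −1.38 ± 0.12 and, the other way, Mrps30 at 0.48 ± 0.13, which was −0.39 with spike-in scaling and lost its call without X-1 replicate 2.

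The same sign held for fat burning. Of 33 genes of fatty acid oxidation and peroxisomes 22 fell and 0 rose (limma; 0 higher at an unadjusted p under 0.05), with a median of −0.70, and −0.89, −0.92 and −0.61 within slides 1, 2 and 3, and the most 3′ probes gave 24 lower. Decr1, which handles unsaturated fatty acids in mitochondria, read −1.14, −1.24 and −1.23 on the control arrays and −3.31, −3.48 and −3.53 on the X-1 arrays and fell by 2.24 ± 0.14. The peroxisomal thiolase Acaa1a fell by 2.35 ± 0.15 and the peroxisomal transporter Abcd2, above background on all control and no X-1 arrays, was at least 1.51-fold lower. Cpt1a, the gate of mitochondrial fatty acid uptake, was not called (−0.07 ± 0.17, adjusted p = 0.741), but was lower with spike-in scaling (−1.06, adjusted p = 0.000666). Regulators of mitochondrial biogenesis and heat production, a separate list, showed no such lean: of 14 genes 2 rose, 3 fell and 9 were not called. Their median was −0.05, or −0.91 with spike-in scaling. The lowest of them, Ppargc1b, a coactivator of mitochondrial genes, read 0.82, 1.09 and 0.83 on the control arrays and −2.17, −2.31 and −2.64 on the X-1 arrays. It fell by 3.29 ± 0.21, with its 3 probes between −3.95 and −3.29. Its relative Ppargc1a was not called (−0.47 ± 0.42, adjusted p = 0.367), except with the 6 arrays fitted alone, without X-3 replicate 1 or with spike-in scaling, which put it at −1.47 (adjusted p = 2.1e-06). Of 12 AMPK subunits and kinases 4 rose and 4 fell, with the regulatory subunit Prkab2 higher by 2.32 ± 0.12 and Prkag1 lower by 0.93 ± 0.20.

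**Figure D3:**
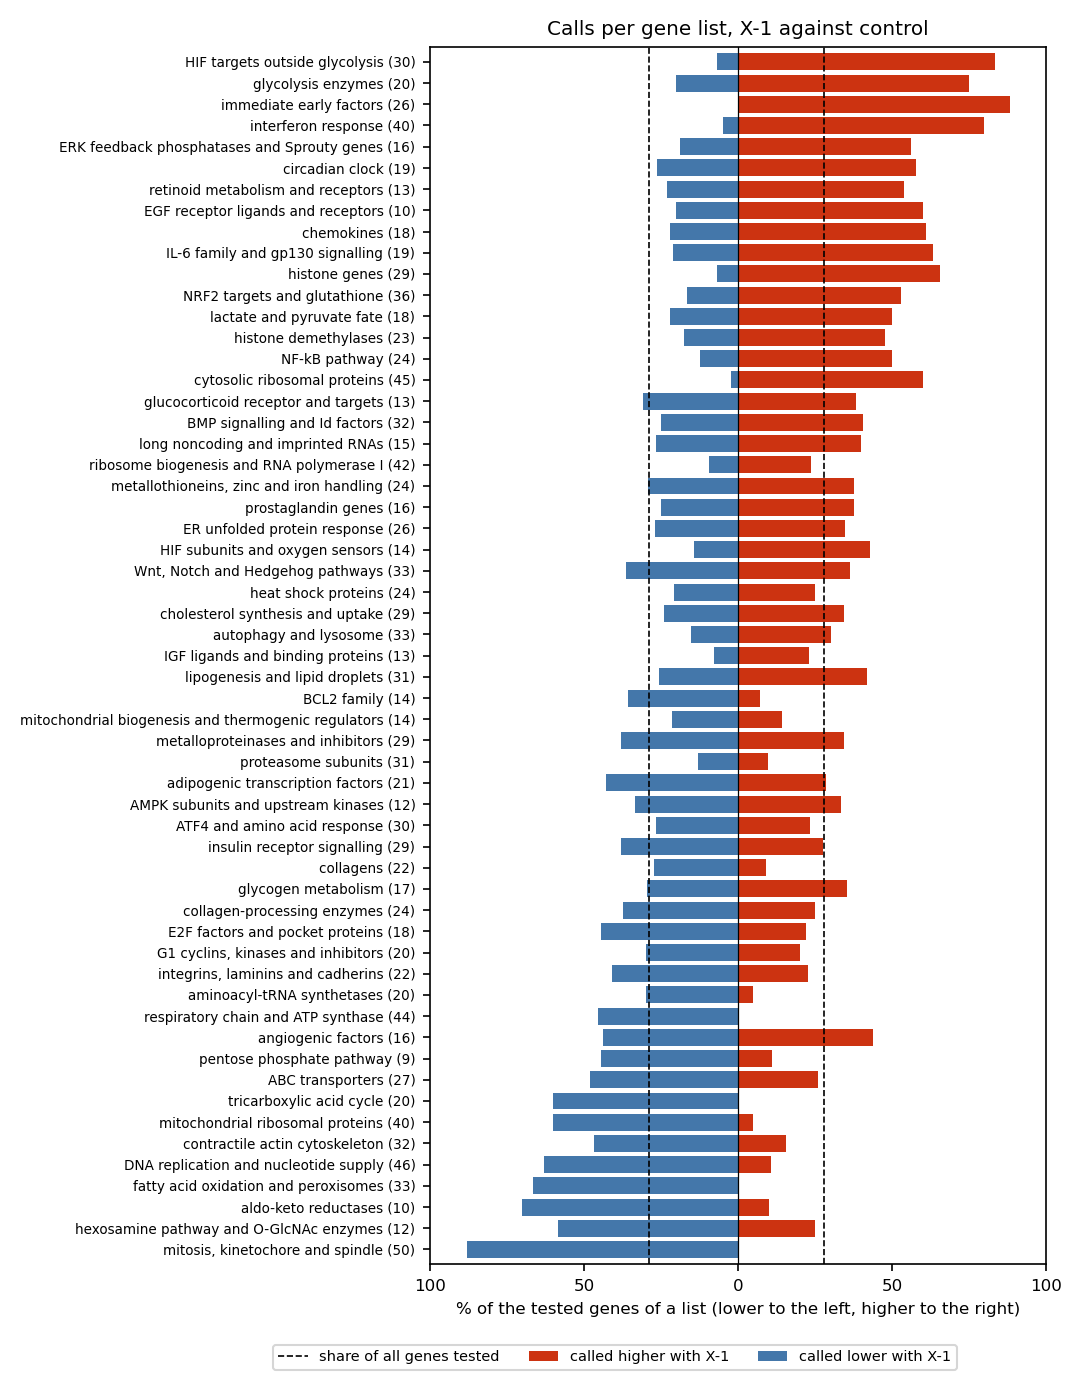
Share of the tested genes of each list (number in brackets) called higher (red, to the right) and lower (blue, to the left) with X-1, for lists with at least 9 tested genes, ordered by their median difference. Dashed lines mark the shares over all 16555 genes, 27.8% higher and 28.8% lower.

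Most cell division genes fell, while many histone genes rose. Of 50 genes of mitosis, the kinetochore and the spindle 44 fell and 0 rose (limma; 0 higher at an unadjusted p under 0.05), with a median of −1.51, and −1.60, −1.43 and −1.41 within slides 1, 2 and 3, and 44 fell with the most 3′ probes too. Plk1, the kinase that drives entry into and passage through mitosis, read 1.25, 0.79 and 0.92 on the control arrays and −1.83, −1.71 and −1.71 on the X-1 arrays. It fell by 2.74 ± 0.20 (6.67-fold), next to the kinetochore protein Cenpf (−3.28 ± 0.15) and Ube2c (−2.89 ± 0.12), the ubiquitin carrier of the anaphase-promoting complex. In the list of DNA replication and nucleotide supply 29 of 46 fell and 5 rose (median −0.70, and −0.73, −0.63 and −0.64 within slides 1, 2 and 3). Rfc5 of the clamp loader fell by 1.78 ± 0.16 and Pold1, the catalytic subunit of polymerase δ, by 1.74 ± 0.15, whereas Orc1 of the origin recognition complex rose by 1.08 ± 0.14, the salvage kinase Dck by 0.93 ± 0.11 and Mcm7 of the replicative helicase by 0.88 ± 0.16.

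The letters TTTGAA, known as the CHR element of late cell cycle genes, stood on either strand in 27 of 40 windows (67.5%) of the 36 mitosis genes that fell and had a window, beside 12.3% of the windows of tested genes and 17.9% of all windows. The E2F letters TTTCGCGC stood in 1 of these 40 windows (2.5%) and in 5 of 30 windows of the replication genes that fell (16.7%), beside 0.59% of the windows of tested genes. TTTGAA stood in 6 of those 30 windows (20%). The windows below show the CHR letters in capitals for the mitosis genes with the largest falls that hold them, Cenpf at chr1:189688037-189688336 on the minus strand and Ube2c at chr2:164769679-164769978 on the plus strand (GRCm38.p6), each read along its gene.
Cenpf: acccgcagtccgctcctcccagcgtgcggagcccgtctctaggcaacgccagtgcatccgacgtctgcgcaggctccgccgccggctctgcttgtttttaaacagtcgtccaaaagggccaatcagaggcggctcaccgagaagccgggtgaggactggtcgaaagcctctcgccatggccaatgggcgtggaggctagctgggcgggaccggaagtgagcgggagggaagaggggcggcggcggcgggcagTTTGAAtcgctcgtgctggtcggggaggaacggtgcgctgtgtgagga
Ube2c: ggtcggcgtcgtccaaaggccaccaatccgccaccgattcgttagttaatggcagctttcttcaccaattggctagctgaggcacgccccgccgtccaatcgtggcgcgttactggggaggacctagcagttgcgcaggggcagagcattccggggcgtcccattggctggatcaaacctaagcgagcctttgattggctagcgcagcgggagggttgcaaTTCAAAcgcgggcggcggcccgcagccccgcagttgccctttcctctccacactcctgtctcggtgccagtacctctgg
In Ube2c the letters run on the opposite strand and appear as TTCAAA. Cenpf read 0.47, 0.32 and 0.40 on the control arrays and −2.96, −2.74 and −2.95 on the X-1 arrays, with no overlap.

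Among the regulators of entry into the cycle, 6 of 20 G1 cyclins, kinases and inhibitors fell and 4 rose, and 8 of 18 E2F factors and pocket proteins fell and 4 rose. The inhibitor Cdkn1a rose by 1.98 ± 0.21 and cyclin D1 (Ccnd1) fell by 2.07 ± 0.15, as did its kinase Cdk4 (−0.98 ± 0.13). E2f2, an activator of S phase genes, rose by 1.92 ± 0.16, and Rb1, which holds E2F in check, by 1.32 ± 0.20 (0.37 and no call with spike-in scaling), while its relative Rbl1 fell by 1.38 ± 0.21. Of 29 histone genes 19 rose and 2 fell (median 0.78, and 0.71, 1.08 and 0.84 within slides 1, 2 and 3). With spike-in scaling the median was 0.04, with 10 higher and 8 lower. The replication-dependent histone genes are near-identical copies that probes may not separate. The highest member of the list was at 4.02. H2bc23, an H2B gene outside the list, read −5.06, −5.35 and −5.30 on the control arrays and −0.05, −0.04 and −0.06 on the X-1 arrays, a rise of 5.19 ± 0.17 (36.4-fold). H2bc6 was at least 10.6-fold higher, but it was above background on no control array and kept only through the X-1 arrays, which fixes its direction. The linker histones H1f2 and H1f0 fell by 1.24 ± 0.20 and 0.90 ± 0.15.

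Early response genes rose, and so did several growth factor ligands. Of 26 immediate early factors 23 rose and 0 fell (limma; 0 lower at an unadjusted p under 0.05), with a median of 2.05, and 1.81, 2.23 and 2.07 within slides 1, 2 and 3. Ier3, an early gene that protects from apoptosis, read 0.45, −0.54 and 0.09 on the control arrays and 4.47, 4.65 and 5.09 on the X-1 arrays. It rose by 4.73 ± 0.43 (26.6-fold), a gap far wider than the spread of either group (SD 0.501 and 0.323, n = 3 each). Fos rose by 3.83 ± 0.21 and Ccn1, a matricellular early gene, by 2.42 ± 0.16. The CRE letters TGACGTCA stood in 2 of 23 windows of the higher early factors, beside 2.91% of windows of tested genes. Of 10 EGF receptor ligands and receptors 6 rose and 2 fell (median 0.86, and 0.95, 0.75 and 0.88 within slides 1, 2 and 3, but −0.11 with spike-in scaling). Hbegf, a ligand shed from the membrane, read −0.96, −1.61 and −1.29 on the control arrays and 3.54, 4.12 and 4.46 on the X-1 arrays and rose by 5.33 ± 0.35 (40.3-fold). Ereg rose by 4.95 ± 0.18 and Areg, above background on no control array, was at least 3.25-fold higher, while the receptors Egfr (−1.14 ± 0.14) and Erbb2 (−0.73 ± 0.16) fell, Egfr lying between −1.14 and 0.35 over the 4 of its 5 probes that were above background on all 6 arrays. The sheddases that release these ligands rose, Adam17 by 1.27 ± 0.33 and Adam10 by 1.23 ± 0.11. Of 16 phosphatases and feedback inhibitors of ERK signalling 9 rose and 3 fell (median 0.95, and 0.84, 1.08 and 1.02 within slides 1, 2 and 3). With spike-in scaling the median was 0.09, with 7 higher and 5 lower. Dusp2 rose by 2.58 ± 0.15 and the receptor inhibitor Errfi1 by 2.09 ± 0.13, whereas Spry1 fell by 1.37 ± 0.12.

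Cytokine and interferon genes were raised in part. Of 18 chemokines 11 rose and 4 fell (median 0.84, and 0.79, 0.96 and 0.84 within slides 1, 2 and 3, but −0.04 with spike-in scaling). Cxcl9, above background on 1 of 3 control arrays, read −6.18, −5.62 and −6.51 on the control arrays and −0.42, −0.24 and −0.13 on the X-1 arrays and rose by 5.84 ± 0.29, while Ccl9 fell by 1.68 ± 0.15, Ccl27a by 1.53 ± 0.11 and Ccl11, the eosinophil attractant, was at least 2.6-fold lower. The letters GGGNNTTCC of NF-kB sites stood in 4 of 8 windows of the higher chemokines and 1 of 4 of the lower ones, beside 6.99% of windows of tested genes. In the NF-kB pathway list they stood in 2 of 10 windows of the higher genes and 1 of 3 of the lower ones. In the IL-6 family 12 of 19 rose and 4 fell (median 0.82, and 0.88, 0.81 and 0.91 within slides 1, 2 and 3, but −0.06 with spike-in scaling). Lifr, a receptor subunit of LIF, read 1.42, 1.65 and 1.52 on the control arrays and 4.67, 4.92 and 4.77 on the X-1 arrays and rose by 3.25 ± 0.12, with 0.43 at its most 3′ probe, and the inhibitor Socs3 rose by 2.23 ± 0.32. Ctf1, a cytokine of the family, fell by 3.06 ± 0.21, and the receptor subunit Il11ra1 by 1.86 ± 0.15. Of 24 NF-kB pathway genes 12 rose and 3 fell (median 0.46, and 0.39, 0.54 and 0.51 within slides 1, 2 and 3, but −0.42 with spike-in scaling), with the nuclear regulator Nfkbiz higher by 2.72 ± 0.15 and the inhibitor Nfkbie lower by 1.73 ± 0.21. Of 16 prostaglandin genes 6 rose and 4 fell (median 0.15, but −0.05 with median scaling and −0.79 with spike-in scaling and −0.13 with the most 3′ probes). The largest rise in this list was that of Ptgs2, by 5.63, and its X-1 and control arrays did not overlap. Ptges, which makes PGE2, rose by 1.86 ± 0.13, and Ptgis, which makes prostacyclin, fell by 1.60 ± 0.19.

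Of 40 interferon response genes 32 rose, 2 fell and 6 were not called (median 1.36, and 1.40, 0.96 and 1.64 within slides 1, 2 and 3), and 16 rose and 7 fell with spike-in scaling. Rsad2, an antiviral enzyme, read −2.07, −0.90 and −1.56 on the control arrays and 3.02, 3.02 and 3.00 on the X-1 arrays. The X-1 arrays nearly coincided (SD 0.0101, n = 3) while the controls were spread (SD 0.585, n = 3), without overlap, and the gene rose by 4.52 ± 0.26 (23-fold). Oas1a rose by 3.37 ± 0.28, and Ifi202b, read at 4.06, 4.77 and 4.42 on the control arrays and 2.52, 2.95 and 2.95 on the X-1 arrays, fell by 1.61 ± 0.19. The interferon element letters GAAANNGAA stood in 17 of 28 windows of the higher genes (60.7%) and 0 of 3 windows of the lower ones, beside 7.1% of the windows of tested genes and 8.56% of all. Those of Rsad2 at chr12:26456403-26456702 and Oas3 at chr5:120777610-120777909 (both minus strand, GRCm38.p6) are shown with the letters of either strand in capitals.
Rsad2: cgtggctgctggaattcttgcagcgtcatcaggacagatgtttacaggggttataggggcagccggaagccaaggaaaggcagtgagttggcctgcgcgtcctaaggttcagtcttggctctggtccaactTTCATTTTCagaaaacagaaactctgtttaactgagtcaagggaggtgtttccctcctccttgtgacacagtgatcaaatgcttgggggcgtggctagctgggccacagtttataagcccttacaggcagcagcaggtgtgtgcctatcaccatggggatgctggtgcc
Oas3: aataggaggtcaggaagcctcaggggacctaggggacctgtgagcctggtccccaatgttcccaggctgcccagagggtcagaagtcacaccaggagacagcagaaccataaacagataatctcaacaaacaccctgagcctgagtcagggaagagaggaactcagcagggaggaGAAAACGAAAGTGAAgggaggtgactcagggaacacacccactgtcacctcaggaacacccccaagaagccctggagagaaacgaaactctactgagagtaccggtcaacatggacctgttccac
Oas3, which senses double-stranded RNA, was above background on 1 of 3 control arrays and rose by 3.38 ± 0.42.

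Stress and protein synthesis lists were split. Atf4, the factor of the amino acid and integrated stress response, read 0.79, 0.77 and 0.73 on the control arrays and 2.26, 2.18 and 2.21 on the X-1 arrays and rose by 1.45 ± 0.11, a call lost with spike-in scaling (0.52). Of 30 genes of its response 7 rose and 8 fell (median −0.12, and −0.21, −0.11 and 0.04 within slides 1, 2 and 3). Those that rose include the stress phosphatase subunit Ppp1r15a (2.16 ± 0.14) and the cystine transporter Slc7a11 (2.14 ± 0.18). Those that fell include Pycr1 of proline synthesis (−1.98 ± 0.17), Phgdh of serine synthesis (−1.92 ± 0.16) and the glycine transporter Slc6a9 (−1.32 ± 0.17). The letters TGATGNAA stood in 3 of 7 windows of the higher members and 1 of 8 windows of the lower ones, beside 2.38% of windows of tested genes. The lower member is Pycr1, whose window at chr11:120643699-120643998 (minus strand, GRCm38.p6) is shown. The choice followed the direction of the list median, which is opposite to that of Atf4, so windows of the higher members are not shown.
Pycr1: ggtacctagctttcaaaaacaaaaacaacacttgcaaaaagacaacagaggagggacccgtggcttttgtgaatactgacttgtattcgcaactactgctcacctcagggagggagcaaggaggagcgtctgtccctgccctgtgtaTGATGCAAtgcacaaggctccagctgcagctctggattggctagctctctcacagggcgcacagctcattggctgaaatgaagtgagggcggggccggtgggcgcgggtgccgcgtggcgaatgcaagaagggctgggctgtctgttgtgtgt
In the unfolded protein response of the endoplasmic reticulum 9 of 26 rose and 7 fell (median 0.14, but −0.07 with median scaling and −0.68 with spike-in scaling). The sensor Ern1 rose by 2.92 ± 0.10 and the co-chaperone Dnajb9 by 3.18 ± 0.15, while Creld2 fell by 0.72 ± 0.13. Of 24 heat shock proteins 6 rose and 5 fell (median 0.12, but −0.08 with median scaling and −0.04 with quantile normalization and −0.79 with spike-in scaling), with Hspa1b higher by 1.21 ± 0.20 (Hspa1a and Hspa1b are near-identical) and the small heat shock protein Cryab, read at 3.67, 3.68 and 3.74 on the control arrays and 0.27, 0.40 and 0.26 on the X-1 arrays, lower by 3.39 ± 0.14.

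Of 45 cytosolic ribosomal proteins 27 rose and 1 fell, but their median of 0.41 was 0.00 with quantile normalization and −0.47 with spike-in scaling, and 1 rose and 1 fell with median scaling. Aminoacyl-tRNA synthetases (1 of 20 higher, 6 lower) and proteasome subunits (3 of 31 higher, 4 lower) were mostly not called.

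Detoxification genes rose in some families and fell in others. In the list of NRF2 targets and glutathione enzymes, 19 of 36 rose and 6 fell (median 0.63, and 0.41, 0.82 and 0.65 within slides 1, 2 and 3, but −0.21 with spike-in scaling). Gclc, the rate-limiting enzyme of glutathione synthesis, rose by 2.95 ± 0.22. Gsta1 read −4.56, −4.39 and −4.47 on the control arrays and −0.47, 0.10 and −0.08 on the X-1 arrays and rose by 4.32 ± 0.17, and its near-identical relative Gsta2, above background on no control array, was at least 21.4-fold higher. Other glutathione transferases fell, Gstt1 by 2.07 ± 0.12, Mgst3 by 1.90 ± 0.18 and Gstm5 by 1.42 ± 0.12. The ARE letters TGACNNNGC stood in 5 of 16 windows of the higher members of the list and 1 of 9 of the lower ones, beside 14.2% of windows of tested genes. Aldo-keto reductases reduce steroids and aldehydes, and 7 of 10 fell and 1 rose (median −0.71, and −0.84, −0.63 and −0.65 within slides 1, 2 and 3). Akr1c14 read 2.24, 2.52 and 2.53 on the control arrays and −1.96, −1.73 and −1.65 on the X-1 arrays and fell by 4.21 ± 0.21 (18.5-fold), and Akr7a5 fell by 2.14 ± 0.11, while Akr1c18 rose by 1.32 ± 0.19. Of 27 listed ABC transporters 13 fell and 7 rose. Abcc1, an exporter of glutathione conjugates, was higher by 2.46 ± 0.12, and the lowest member was at −2.76. Abca9, which is outside this list, fell by 4.33 ± 0.20. It read −0.94, −0.69 and −0.65 on the control arrays and −5.52, −4.93 and −4.82 on the X-1 arrays. Of 24 genes of iron and zinc handling 9 rose and 7 fell (median 0.23, but −0.69 with spike-in scaling). The transferrin receptor Tfrc rose by 3.24 ± 0.15 and the zinc and iron importer Slc39a14 by 2.14 ± 0.42, while the importer Slc39a8 fell by 1.78 ± 0.22. Of 5 genes of the aryl hydrocarbon receptor 3 rose and 1 fell (median 0.80, but −0.02 with spike-in scaling). Tiparp, a target, rose by 2.73 ± 0.13 and Cyp1b1 by 1.31 ± 0.13, with 4.12 at its other probe, and the receptor Ahr fell by 0.74 ± 0.20.

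Adipocyte regulators and lipid genes went both ways. Of 21 adipogenic transcription factors 6 rose and 9 fell. Zfp423, which commits cells to the preadipocyte fate, read −1.68, −1.63 and −1.83 on the control arrays and −4.43, −4.75 and −4.73 on the X-1 arrays and fell by 2.93 ± 0.13, with a smaller fall at its other probe. The liver X receptor Nr1h3 fell by 1.80 ± 0.18 and Zfp467 by 1.40 ± 0.11, while early factors of differentiation rose: Cebpd by 3.05 ± 0.20, Klf5 by 2.57 ± 0.16 and Klf9 by 1.84 ± 0.30. Of 31 lipogenesis and lipid droplet genes 13 rose and 8 fell (median 0.04, but −0.16 with median scaling and −0.76 with spike-in scaling). Within the perilipin family Plin2 rose by 2.34 ± 0.12, Plin3 fell by 1.74 ± 0.15 and Plin4, read at 3.36, 3.43 and 3.49 on the control arrays and 0.12, 0.68 and 0.71 on the X-1 arrays, fell by 2.92 ± 0.17. Of 29 cholesterol genes 10 rose and 7 fell (median 0.10, and 0.13, −0.00 and 0.15 within slides 1, 2 and 3, but −0.10 with median scaling and −0.86 with spike-in scaling and −0.05 with the most 3′ probes). Insig1, which holds the SREBP complex in the endoplasmic reticulum, rose by 2.43 ± 0.20, whereas mevalonate kinase Mvk fell by 2.33 ± 0.13. The SRE letters TCACNCCAC stood in 0 of 10 windows of the higher cholesterol genes and 0 of 8 of the lower ones, beside 1.16% of windows of tested genes. Of 29 insulin signalling genes 8 rose and 11 fell. Irs1 fell by 2.57 ± 0.17 at its most 3′ probe and was at −0.12 at its most 5′ one, and the PI3 kinase subunit Pik3r2 fell by 1.55 ± 0.17.

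The contractile and matrix lists held more falls than rises, though narrowly so among the metalloproteinases and inhibitors. The share of collagens that fell was near the 28.8% over all genes. Of 32 contractile actin genes 15 fell and 5 rose (median −0.56, and −0.39, −0.43 and −0.80 within slides 1, 2 and 3). Smooth muscle actin Acta2 read 5.37, 5.33 and 5.21 on the control arrays and 2.82, 2.86 and 2.82 on the X-1 arrays and fell by 2.47 ± 0.20 (5.54-fold) with no overlap, while its most 3′ and most 5′ probes were at −0.99 and −0.45. The regulatory light chain Myl9 fell by 2.74 ± 0.15 and calponin Cnn2 by 2.26 ± 0.17, whereas Cnn1 rose by 1.26 ± 0.14. Mrtfb, a coactivator of serum response factor that drives actin genes, read −4.30, −4.16 and −4.30 on the control arrays and 0.33, 0.54 and 0.53 on the X-1 arrays and rose by 4.72 ± 0.13 (26.3-fold), with 3.73 at its other probe. Of 22 collagens 6 fell and 2 rose, led by Col11a1 (−2.80 ± 0.18) and Col8a1 (−2.28 ± 0.17), with Col4a1 of basement membranes at 0.84 ± 0.11 (−0.12 with spike-in scaling). Of 24 collagen-processing enzymes 6 rose and 9 fell. P4ha2 (3.39 ± 0.21) and Plod2 (2.47 ± 0.17), hydroxylases known as HIF targets, and the lysyl oxidase Loxl2 (3.09 ± 0.20) rose, and Loxl1 fell by 1.70 ± 0.15. Of 22 integrins, laminins and cadherins 9 fell and 5 rose. The collagen receptor subunit Itga11, above background on all control and 2 of 3 X-1 arrays, fell by 3.26 ± 0.15. Among 29 metalloproteinases and inhibitors 10 rose and 11 fell, with Adam12 lower by 2.87 ± 0.14, Mmp23 lower by 2.55 ± 0.11 and the collagenase Mmp13 higher by 1.49 ± 0.11.

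**Figure D4:**
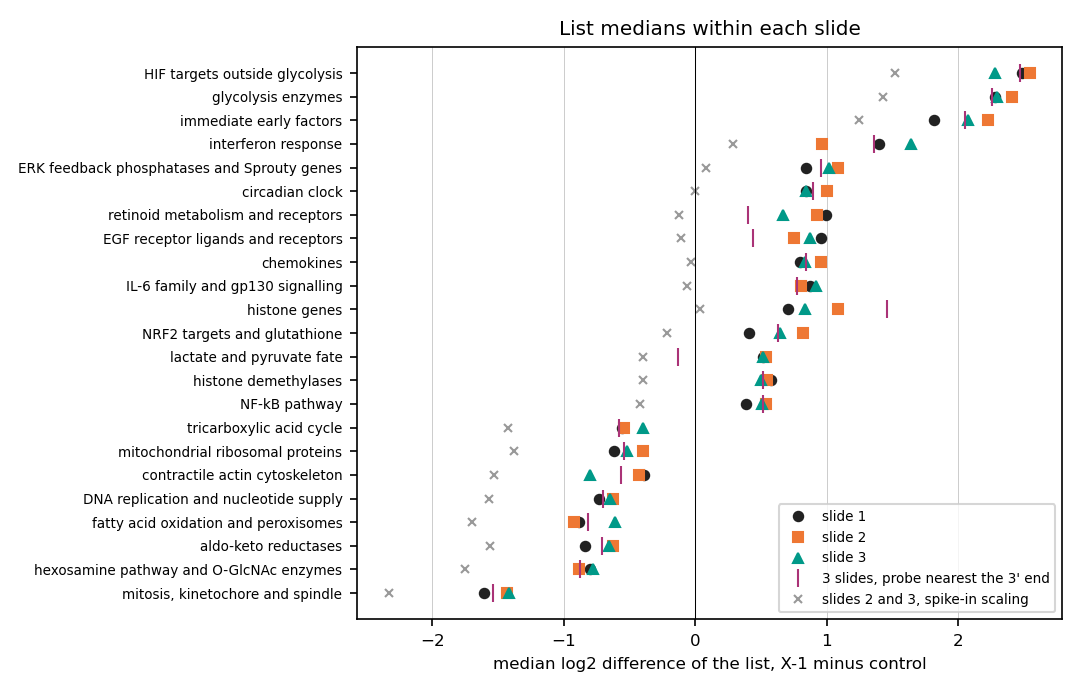
Median log2 difference between X-1 and control of the lists with at least 9 tested genes whose median was 0.45 or more from 0, computed within each slide (circle, square and triangle for slides 1, 2 and 3), with the most 3′ probe of each gene (bar) and with spike-in scaling on slides 2 and 3 (cross). The 3 slides gave each list 1 sign; spike-in scaling turned the sign of the circadian, retinoid, EGF, chemokine, IL-6, NRF2, lactate, histone demethylase and NF-kB lists, and the 3′ probes that of the lactate list.

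Clock and developmental signalling genes also moved. The circadian clock list held 11 rises and 5 falls among 19 genes (median 0.90, or −0.00 with spike-in scaling). The repressors Ciart (−1.96, −2.53 and −2.46 on the control arrays and 3.19, 3.36 and 3.30 on the X-1 arrays) and Bhlhe41 (−3.98, −3.91 and −3.83 on the control arrays and 0.15, 0.60 and 0.06 on the X-1 arrays) rose by 5.59 ± 0.24 and 4.18 ± 0.19, and Dbp, an output of the clock, fell by 1.88 ± 0.15. The E-box letters CACGTG stood in 4 of 13 windows of the higher clock genes and 0 of 8 windows of the lower ones, beside 9.56% of windows of tested genes. Of 32 BMP signalling genes and Id factors 13 rose and 8 fell (median 0.34, and 0.31, 0.29 and 0.44 within slides 1, 2 and 3, but −0.57 with spike-in scaling). Id3, an inhibitor of helix-loop-helix factors and a BMP target, read −2.28, −2.25 and −2.31 on the control arrays and 0.55, 0.69 and 0.63 on the X-1 arrays and rose by 2.90 ± 0.13, and Id1 rose by 2.59 ± 0.42. Of 33 Wnt, Notch and Hedgehog genes 12 rose and 12 fell (median 0.13, but −0.07 with median scaling and −0.05 with quantile normalization and −0.78 with spike-in scaling). The co-receptor Lrp6 rose by 2.27 ± 0.14 and the Notch effector Rbpj by 2.33 ± 0.20, while Wnt6 fell by 1.97 ± 0.17, the secreted inhibitor Sfrp2 by 2.20 ± 0.16 and Wnt10a, above background on no X-1 array, was at least 5.97-fold lower. Of 13 genes of retinoid metabolism 7 rose and 3 fell (median 0.86, but −0.12 with spike-in scaling). Cyp26b1, which degrades retinoic acid, rose by 3.84 ± 0.22, and Aldh1a1, which makes it, fell by 0.97 ± 0.17. The imprinted gene Mest, known for its link to fat tissue expansion, read 2.50, 2.24 and 2.22 on the control arrays and −1.26, −1.26 and −1.37 on the X-1 arrays and fell by 3.61 ± 0.20.

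Some of the largest changes lay outside these groups. Eid3, an inhibitor of the coactivator p300, rose by 8.57 ± 0.24, but 1 of the 3 control arrays had it below the detection threshold. Slpi and Lcn2, secreted defence proteins, rose by 5.59 ± 0.21 and 5.17 ± 0.22, reading 0.85, 0.47 and 0.43 on the control arrays and 6.34, 6.29 and 5.88 on the X-1 arrays for Slpi. On all X-1 and no control arrays 249 genes were above background, a choice that fixes their direction. They include Wfdc12, a relative of Slpi (at least 32.1-fold), Mettl7b (23.3-fold), Grb7, an adaptor of receptor kinases (15.1-fold), and the cytokine Csf3 (7.23-fold). Another 295 genes were above background on all control and no X-1 arrays. Of these Piezo2, a mechanically gated channel, was at least 15.3-fold lower, Limch1, an activator of non-muscle myosin, 10.8-fold, and Rspo2, an amplifier of Wnt signals, 8.81-fold. Among genes above background on all 6 arrays Tmem191c fell by 5.08 ± 0.11, Mrvi1, a target of cGMP kinase, by 4.46 ± 0.17, Entpd2, an ecto-ATPase, by 4.25 ± 0.19 and Kera, a corneal proteoglycan, by 4.02 ± 0.11.

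X-1 and X-3 form the only pair of compounds at matched dose and time. They differed in 1815 of 16555 genes (11%), with X-1 above X-3 in 627 and below in 1188, and by at least 2-fold in 298. Genes were kept by detection on the control or X-1 arrays, so a gene detected only with X-3 could not be counted. The count of genes that differed was 443 with median scaling. It was 3416 without X-3 replicate 1, 618 and 643 without X-1 replicates 2 and 3, 756 and 775 without X-3 replicates 2 and 3, and 1081 without control replicate 3. Ptgs2 read 2.44, 2.75 and 2.51 with X-1 and 0.93, 1.06 and 0.92 with X-3, and X-1 was higher by 1.60 ± 0.14 (adjusted p = 0.00373). Ereg was higher with X-1 by 1.53 ± 0.18. Fubp1, a regulator of Myc, was raised by X-1 (0.99 ± 0.28, a call lost without control replicate 1 or X-1 replicate 3) and stood 2.26 ± 0.28 above X-3, whose arrays all lay below the controls. Angpt1, a vessel-stabilising factor, read −0.87, −0.44 and −0.39 on the control arrays and −2.49, −2.42 and −2.16 with X-1. With X-3 it read −4.10, −3.38 and −3.87, so it lay below the controls with both compounds. Cdk5 stood 1.59 ± 0.17 lower with X-1 than with X-3, and Kdm4d 1.89 ± 0.18 lower. Against control, Cdk5 was at −3.18 with X-1 and −1.59 with X-3. For Egln3 the difference was 0.47 ± 0.13, a call at adjusted p = 0.0465. No call was made for Egln1, where the 95% interval of X-1 minus X-3 was −0.36 to 0.42, for Hif1a (−0.22 to 0.68), for Cenpf (−0.43 to 0.24) or for Atf4 (−0.28 to 0.23), which does not show that the compounds act alike on them.

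**Figure D5:**
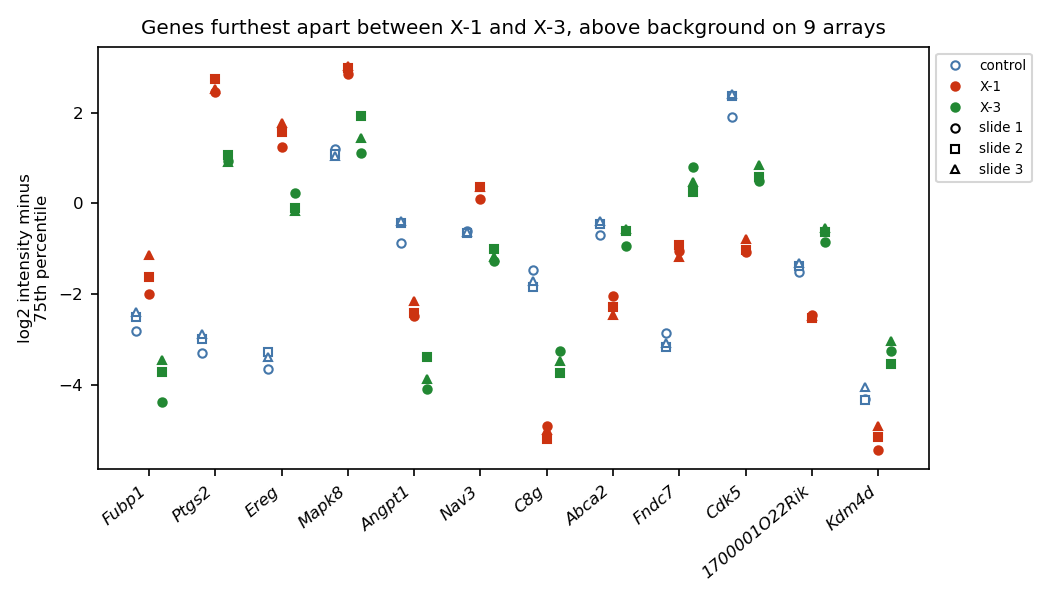
Array values (log2 intensity minus the 75th percentile of the array) of the 12 named genes furthest apart between X-1 (red) and X-3 (green) among genes above background on all 9 arrays, with the controls in blue and symbols by slide. The 12 genes were chosen for this difference, so the lack of overlap between their X-1 and X-3 arrays is no separate result.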

How the data were processed

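Total RNA was labelled with 1 dye and hybridised to 44K Agilent arrays, with slides 1, 2 and 3 each holding 1 array of every group. The processed signals are intensities that the scanner software corrected for background, per the file headers, which name Feature Extraction 10.5.1.1 for slide 1 and 10.7.3.1 for slides 2 and 3, while the submitters' processing notes name 9.1. Well-above-background and outlier flags are scores of 0 or 1, per the file headers. Spike-in RNA was present on slides 2 and 3. The authors' deposited value table holds scores with a mean of 0 and an SD of 1 on every array. They were put on the log2 scale (3.95 to 4.25 per score unit) by the mean slope and served as an alternative.

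Control and outlier spots were left out (214 probes had no spot left), spots of a probe were averaged, and each array's 75th percentile was subtracted on the log2 scale. limma 3.58.1 (R 4.3.3) fitted 1 model with a term per group to all 9 arrays, with Benjamini-Hochberg adjustment over 16555 genes and an adjusted p of 0.05 as the threshold. The self-test on simulated arrays is not quoted. Probes were named through RefSeq accessions (25263) symbols (6233) or synonyms (1603), and 8075 kept the name in the files. 13431 of the genes tested had a reference symbol. 60.4% to 63.6% of the spots were above background and none was saturated on the 6 arrays. Precision is limited by having 3 arrays a group. An at-least fold sets the bright group's mean against the detection floor of the dim group. The planned normexp correction used median instead of mean spot signals, which slides 2 and 3 lack.

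The members and lists were chosen with earlier results of these data known. Named genes were up to 3 rises and 3 falls per list with the same sign on 3 slides, key genes of the pathways, the largest changes, the largest bounds and the genes furthest from X-3, and some of these are not reported here. The series' design text calls the 9 arrays independent experiments. Same-numbered arrays share a slide. The deviations of control and X-1 arrays from their group means correlated within slides at 0.52, 0.33 and 0.27. Across slides 2 and 3, which share a scan day, they correlated at 0.13 and 0.22, and across slide 1 and the others at −0.42 to −0.32. The values mostly set slide 1 apart and do not show a pairing by slide within slides 2 and 3. Array correlations were 0.990 to 0.997 within groups. Alternatives changed the scaling, background correction, filter, probe choice, arrays and slide term.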

Additional observations from a re-analysis of the deposited data

How the results depend on the processing

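Of 200 genes named with values, 166 kept their direction and call under every alternative run. Signal over background limits dim genes, and levels relative to the 75th percentile limit directions. The count of genes called higher (4600) was 3042 with median scaling and 1474 with spike-in scaling, which gave 10220 lower and 8321 at least 2-fold apart. The count against X-3 (1815) was 443 with median scaling, 1078 with normexp and 578 without a filter. Leaving out 1 array gave 8208 to 10857 genes called against control and 618 to 3416 against X-3. With spike-in scaling Col4a1 was at −0.12, Hspa4 at −0.44 and Mrps30 at −0.39, and Hspa4 was at −0.39 as the mean of its probes. Among the genes named only in this section, spike-in scaling ended the calls of Bcl2l2, Igf2 and Wipi2, normexp that of Cstdc4, and the most 5′ probe those of Bcl2 and Bcl2l2. With the most 3′ probe, an alternative chosen after seeing the data, Hspa4 was at −1.97 and Ndufb8 at 0.44, and with the most 5′ probe, likewise added, Pfkfb2 was at 0.41. Probes nearest the 3′ end gave 4298 genes higher and 5167 lower, and those nearest the 5′ end 4780 and 3947. For single genes the cause was not tested beyond the choice of probe. The slide as a replicate block, which pairs the arrays, gave 9903 genes called, 4953 higher and 4950 lower, and changed no other call named in the text.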

Other observations

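Of 6 stefins and cystatins, inhibitors of cysteine proteases, 3 were higher and 0 lower (limma, 0 lower at an unadjusted p under 0.05). Stfa3 rose by 4.15 ± 0.33 (above background on 2 of 3 control arrays). Csta1 and Cstdc4, both above background on no control array, were at least 8.53-fold and 1.91-fold higher. They were kept only through the X-1 arrays, which fixes their direction. The list median was 1.70, but 0.57 with the detection floor in place of undetected levels. It was 0.26 with normexp, which called 2 higher. Stfa3, Csta1 and Cstdc4 are near-identical neighbours that probes may not separate. Glul, which makes glutamine and is a glucocorticoid target, rose by 2.49 ± 0.23, while the kinase Sgk1, also a glucocorticoid target, fell by 1.88 ± 0.23 and the sulfotransferase Sult1a1, above background on no X-1 array, was at least 8.66-fold lower. Of 13 glucocorticoid receptor genes 5 rose and 4 fell (median 0.37, but −0.40 with spike-in scaling), so the list went both ways.

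Regulators of apoptosis and autophagy moved in part. Of 14 BCL2 family genes 5 fell and 1 rose. Bcl2, which protects from apoptosis, fell by 1.75 ± 0.15 and its killer relative Bok by 2.24 ± 0.14, while Bcl2l2, another protective member, rose by 1.11 ± 0.15. Of 33 autophagy and lysosome genes 10 rose and 5 fell (median 0.09, but −0.11 with median scaling and −0.03 with quantile normalization and −0.77 with spike-in scaling), with Wipi2 of early autophagosomes higher by 1.37 ± 0.22 and the lysosomal sialidase Neu1 lower by 1.19 ± 0.17. Of 13 IGF ligands and binding proteins 3 rose, 1 fell and 9 were not called (median 0.09, but −0.11 with median scaling and −0.02 with quantile normalization and −0.81 with spike-in scaling and −0.10 with the mean of the probes and −0.10 with the most 3′ probes), with Igf2 higher by 1.03 ± 0.22.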
